A study of Mus musculus with 15 samples.

Results

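The 10 genes described here, Cntn1, Cntn2, Dcx, Tubb3, Rbfox3, Cbln1, Cbln3, Etv1, Astn1 and Stmn2, are used when a cerebellar granule neuron leaves the cell cycle, sends out its axon, migrates inward and starts to make synapses. They were taken by name from the 22180 genes that have a row of their own on the array, and all 10 were measured. RNA from newborn mouse cerebella was measured on 15 arrays, 1 per library, in 3 labelled groups of 5 on a C57BL/6 background. The cerebella were dissociated and then, by the design text, enriched for cerebellar granule neuron progenitors on a density gradient. The same text also speaks of whole cerebella, so how far the RNA comes from enriched cells is not settled. The double knockout (DKO) lacks the alpha and the beta isoform of the kinase Gsk-3 in granule neuron progenitors. In the Math1-Cre control (MCre) only Gsk-3 beta is labelled as deleted in these cells, and the no-Cre control (NoCre) is labelled as having no Cre and intact Gsk-3. The descriptions of both controls nevertheless give Gska+- (1 altered Gsk3a allele), with GskBff, floxed Gsk3b, in all but NoCre 5, and those of the DKO spell out no alleles. Math1 (Atoh1) is active in granule neuron progenitors and in other neuron precursors of the rhombic lip, so Cre acts in some of the cells and the RNA also comes from cells it does not reach. The age is postnatal day 1 in 1 field of the labels and day 2 in another. The labels number the replicates but do not say that they came from separate litters, so a p-value here sets a difference against sample spread that may be technical in part, and 5 arrays a group limit the precision.

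Granule neurons are born from progenitors in the outer layer of the newborn cerebellum, where Sonic hedgehog keeps the progenitors dividing. A cell that stops dividing first moves to the inner part of that layer, switches on adhesion molecules of the contactin family and microtubule proteins of young neurons, extends parallel fibres and then crawls along Bergmann glia into the interior. GSK-3 kinases restrain WNT signalling by marking beta-catenin for destruction and also act on microtubule-associated proteins of growing axons. At birth most granule neurons have yet to be made. The adhesion and microtubule genes are not restricted to them, since Purkinje cells, interneurons and other young neurons use Cntn1, Dcx, Tubb3 and Stmn2 too. In RNA of mixed cells, fewer cells of a type and less RNA per cell cannot be told apart.

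The array's Gsk3a row, annotated to 9130221H12Rik as well, disagreed with the labels of 4 libraries. It lay at 9.47, 8.22, 9.37, 7.89 and 8.27 log2 in the libraries labelled DKO 1 to 5, at 8.25, 8.03, 9.48, 9.50 and 9.51 in those labelled MCre 1 to 5, and at 9.42 to 9.59 in the 5 NoCre libraries. A low Gsk3a row, below 9.0, was thus found in the libraries labelled DKO 2, 4 and 5 and MCre 1 and 2, and a high one in the other 10. Results that rest on the labels are given for all 15 libraries and without DKO 1, DKO 3, MCre 1 and MCre 2, which leaves 11. The 11 were thus selected by a measured row, and p-values over them do not allow for that selection. The arrays labelled DKO 3, 4 and 5 and NoCre 4 had the narrowest spread, with interquartile ranges over genes of 4.00 to 4.12 log2 against 4.22 to 4.40 in the others. Gsk3b averaged 10.78 ± 0.14 log2 in DKO, 10.78 ± 0.09 in MCre and 10.77 ± 0.10 in NoCre (SD, n = 5 each), and since the sources do not say which part of the gene its probes read, this row does not check the labels. Correlations between libraries over all genes were 0.981 to 0.997.

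Values are log2 expression as deposited, and a difference of 1 is a doubling. Levels of different genes are not set against each other, since each row has its own probes. All members but Cbln3 lay far above the olfactory and vomeronasal receptor genes, which mark the background of these arrays with medians of 3.50 to 4.11. Cbln3 lay at 4.94 to 5.95. It was listed at exactly the same value, 5.45, in 4 libraries (MCre 1, MCre 2, NoCre 2 and NoCre 3). Such ties in 4 or more libraries occurred in 5.93% of all genes, and they limit what the Cbln3 row can show.

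Across all 15 libraries Stmn2, Cntn1, Astn1, Tubb3 and Dcx were the steadiest members. Stmn2, which encodes stathmin-2, a regulator of microtubule growth in neurites, had a standard deviation (SD) of 0.046 log2 over all libraries, at the 0.14th percentile of the SDs of all genes. Cntn1, an adhesion molecule of axons, had an SD of 0.081, Astn1, which encodes astrotactin-1, an adhesion protein for movement along glial fibres, 0.091, Tubb3, the neuronal beta-tubulin, 0.10, and Dcx, which encodes the microtubule protein doublecortin, 0.12. The SD was larger in Rbfox3 (0.18), which encodes the splicing factor and nuclear marker NeuN, in Cbln1 (0.19), in Cntn2 (0.20), in the ETS transcription factor gene Etv1 (0.22) and in Cbln3 (0.27). Beside all genes the SDs of Rbfox3, Cbln1 and Cntn2 were ordinary, at the 52.6th, 55.7th and 61.0th percentiles.

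**Figure D1:**
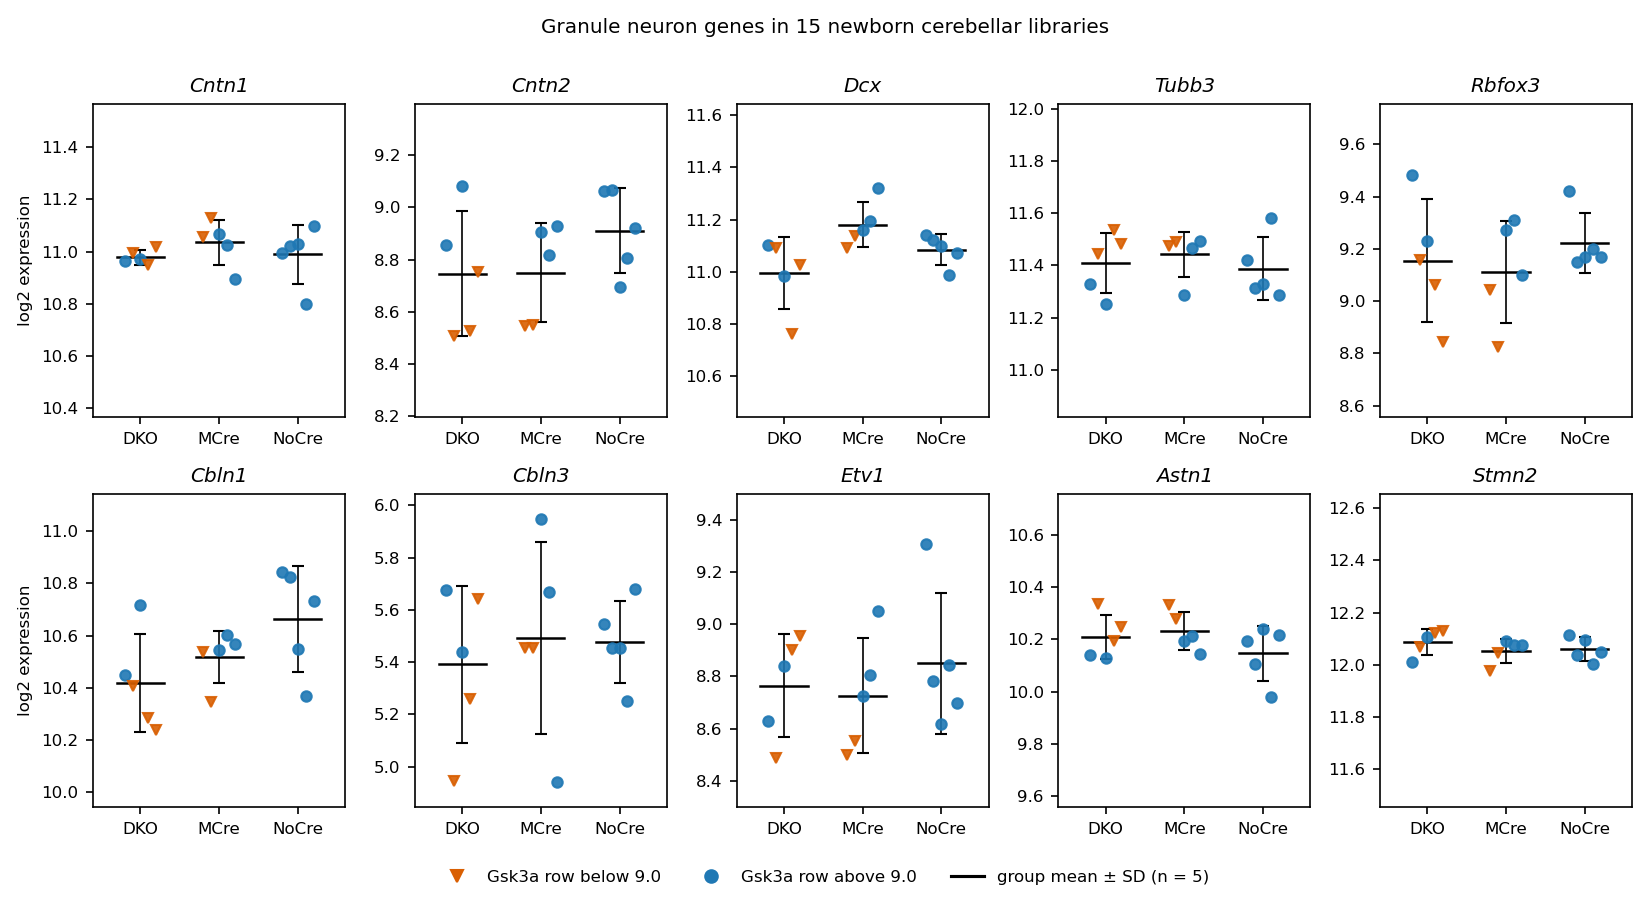
Level of each member (log2 expression, vertical axes of equal length) in the libraries labelled DKO, MCre and NoCre. Points are libraries, triangles those with the Gsk3a row below 9.0 and circles those above it, and bars give the group mean ± SD (n = 5). In no panel do 2 labelled groups separate, while the triangles sit low in Cntn2 and Rbfox3.

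In the deposited values given further on, Cntn2, Rbfox3 and Astn1 separated by the Gsk3a row within both Cre labels. In the low libraries Cntn2 and Rbfox3 were lower and Astn1 was higher. On other scales Rbfox3 did not always separate, and Tubb3, which is not shown here, did. The sequences before the start of Cntn2, Rbfox3 and Astn1 are shown for their place on the deposited scale. They are the 250 bases before an annotated transcript start in RefSeq, build GRCm38.p6, which is not the build named for the arrays (mm9), read 5′ to 3′ on the gene's strand, with each E-box (CANNTG, the core bound by basic helix-loop-helix factors such as ATOH1 and NEUROD1) in capitals. Cntn2 is at chr1:132542941-132543190 on the minus strand, Rbfox3 at chr11:118761042-118761291 on the minus strand, where the start lies within the annotated gene, and Astn1 at chr1:158362054-158362303 on the plus strand.
Cntn2: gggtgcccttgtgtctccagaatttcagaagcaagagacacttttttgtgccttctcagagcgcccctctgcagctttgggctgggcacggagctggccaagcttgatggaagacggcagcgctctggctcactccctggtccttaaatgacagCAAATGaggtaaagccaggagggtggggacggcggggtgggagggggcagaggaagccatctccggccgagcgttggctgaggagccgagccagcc
Rbfox3: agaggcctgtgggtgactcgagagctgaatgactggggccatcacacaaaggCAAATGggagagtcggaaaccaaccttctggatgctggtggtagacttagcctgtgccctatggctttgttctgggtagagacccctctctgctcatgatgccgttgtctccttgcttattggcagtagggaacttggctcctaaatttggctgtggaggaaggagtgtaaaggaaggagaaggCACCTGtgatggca
Astn1: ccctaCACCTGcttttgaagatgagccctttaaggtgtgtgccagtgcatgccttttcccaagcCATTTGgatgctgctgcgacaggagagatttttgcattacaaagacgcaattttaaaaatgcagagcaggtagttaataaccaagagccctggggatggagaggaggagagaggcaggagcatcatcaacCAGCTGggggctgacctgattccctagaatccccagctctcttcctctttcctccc

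The Cntn2 window holds 1 E-box, 96 bases before the start, the Rbfox3 window 2, at 198 and 14 bases, and the Astn1 window 3, at 245, 186 and 56 bases, of which the last is CAGCTG. An E-box stands in 66.2% of the 32851 windows of this length in the table and CAGCTG in 13.0%, so a match is common. All motifs were searched on both strands. The WNT-response motif CTTTGAT is in none of the 3, is in 1 of the 12 windows of members, at a Cntn1 start, and is in 3.21% of all windows. Windows were matched for 8 of the 10 members, and none was matched for Cbln1 or Stmn2.

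The comparison of DKO with NoCre asks what Cre and the loss of both kinases do together. None of the 10 members passed the test in it. Cbln1, which encodes cerebellin-1, a protein that granule neurons secrete to join parallel fibres to Purkinje cell spines, had 10.45, 10.41, 10.72, 10.28 and 10.24 log2 in DKO 1 to 5, against 10.84, 10.82, 10.55, 10.37 and 10.73 in NoCre 1 to 5. The DKO values are mostly the lower ones, but the groups overlap, through DKO 3 on one side and NoCre 4 on the other. The difference was -0.25 ± 0.10 (SE of the limma fit, n = 5 each, 95% interval -0.47 to -0.02, limma adjusted p = 0.246), the largest of the 10.

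Cntn2, which encodes TAG-1, an adhesion molecule of premigratory granule neurons and their young axons, had 8.85, 8.51, 9.08, 8.53 and 8.75 log2 in DKO 1 to 5, against 9.06, 9.07, 8.69, 8.81 and 8.92 in NoCre 1 to 5. DKO 1 and DKO 5 lie within the range of the NoCre values and DKO 3 lies just above it, so the groups overlap. The difference was -0.17 ± 0.12 (limma adjusted p = 0.487). Dcx (-0.09), Etv1 (-0.09), Cbln3 (-0.08), Rbfox3 (-0.07) and Cntn1 (-0.010) had differences below 0, while Astn1 (+0.06), Stmn2 (+0.03) and Tubb3 (+0.02) were above it. For these 8 members the 95% intervals ran from -0.44 at the lowest, for Cbln3, to 0.27 at the highest, also for Cbln3. Of 10 members 0 passed adjusted p 0.05 in limma and 1, Cbln1, had an unadjusted p under 0.05, against 0.0721% and 17.4% of all genes.

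The other members were close between all 3 groups. Among the microtubule genes, Tubb3 averaged 11.41 ± 0.12 log2 in DKO, 11.44 ± 0.09 in MCre and 11.39 ± 0.12 in NoCre (SD, n = 5 each), and Stmn2 12.09 ± 0.05, 12.05 ± 0.05 and 12.06 ± 0.05 in the same groups. Of the adhesion genes, Cntn1 averaged 10.98 ± 0.03 in DKO, 11.04 ± 0.09 in MCre and 10.99 ± 0.11 in NoCre, and Astn1 10.21 ± 0.08, 10.23 ± 0.07 and 10.15 ± 0.11. In each of these 4 the 3 groups overlapped, and Stmn2 covered a range of 0.15 log2 over all libraries. Etv1, which is active in maturing granule neurons, averaged 8.76 ± 0.20 in DKO, 8.73 ± 0.22 in MCre and 8.85 ± 0.27 in NoCre, where NoCre 1 held the highest value of 9.31. Cbln3, whose product assembles with cerebellin-1 in granule neurons, averaged 5.39 ± 0.30 in DKO, 5.49 ± 0.37 in MCre and 5.48 ± 0.16 in NoCre. Its lowest values, 4.95 in DKO 2 and 4.94 in MCre 5, came from libraries of different label and Gsk3a class.

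Without the 4 libraries whose Gsk3a row went against the label, again no member of the 10 passed, and 1.08% of all genes did. Cbln1 differed by -0.35 ± 0.11 (limma adjusted p = 0.195, 3 DKO libraries against 5 NoCre) and Cntn2 by -0.31 ± 0.10 (limma adjusted p = 0.230). Rbfox3 differed by -0.20 ± 0.10 (limma adjusted p = 0.426). Cbln1 and Cntn2 were the members with an unadjusted p under 0.05, against 12.7% of all genes. The call of Cbln1 depended on NoCre 4, the NoCre library of narrowest spread and lowest Cbln1 level. With that library left out too, Cbln1 was lower in DKO, by 0.43 on the log2 scale, with a limma adjusted p = 0.0241, in a fit that called 4.78% of all genes, and with NoCre 4 alone left out of the 15 it had a limma adjusted p = 0.0572. With the interquartile range of the array as a covariate over all 15 libraries, Cbln1 differed by -0.15 (limma adjusted p = 0.627).

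The comparison of DKO with MCre asks what losing the alpha isoform adds to losing the beta isoform. Dcx came closest in it, and no member passed. It had 11.10, 11.09, 10.99, 10.76 and 11.03 log2 in DKO 1 to 5, against 11.09, 11.14, 11.16, 11.19 and 11.32 in MCre 1 to 5. The groups do not separate, since DKO 1 lies just above MCre 1 and DKO 2 was listed at exactly the value of MCre 1. DKO 4 is the lowest of all 15 libraries. Dcx differed by -0.19 ± 0.07 (n = 5 each, 95% interval -0.34 to -0.03, limma adjusted p = 0.150), and over the 11 libraries by -0.26 ± 0.10 (limma adjusted p = 0.255).

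Cntn2 differed by -0.0041 ± 0.12 between DKO and MCre over all 15 libraries (limma adjusted p = 0.988) and by -0.29 ± 0.12 over the 11 (limma adjusted p = 0.277). Rbfox3 had +0.04 ± 0.11 over the 15 and -0.21 ± 0.11 over the 11 (limma adjusted p = 0.837 and 0.377). Cbln1 differed by -0.10 and -0.26, Cbln3 by -0.10 and -0.24, and Etv1 by +0.04 and -0.08 over the 15 and the 11 libraries. Astn1 (-0.02 and +0.08), Tubb3 (-0.03 and +0.07), Stmn2 (+0.04 and +0.03) and Cntn1 (-0.06 and -0.0098) stayed within 0.08 of 0. Of 10 members 0 passed in limma in either set, against 0.55% of all genes over the 15 libraries and 0.541% over the 11. At an unadjusted p under 0.05 there was 1 member, Dcx, over the 15 libraries, against 23% of all genes, and 2 members, Cntn2 and Dcx, over the 11, against 15.9%.

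The comparison of MCre with NoCre asks what Cre and the loss of Gsk-3 beta do. Members differed by -0.16 (Cntn2) to +0.10 (Dcx) over the 15 libraries and by -0.09 (Cbln1) to +0.14 (Dcx) over the 11. In both sets 0 of 10 members passed in limma and 0 had an unadjusted p under 0.05, and 0% of all genes passed, with 3.23% and 2.2% at an unadjusted p under 0.05. The median difference of the 10 members was -0.08 in DKO minus NoCre, -0.03 in DKO minus MCre and +0.0041 in MCre minus NoCre, and that of all genes -0.02, -0.05 and +0.02. Centring the arrays on their medians raised the median difference of all genes by 0.10 in DKO minus NoCre and by 0.14 in DKO minus MCre. On that scale 8 and 9 of the 10 members lay above 0 in these comparisons, against 3 in each on the deposited scale, so the signs of small differences depended on the scaling. On the deposited values 0 of 10 members had DKO libraries that did not overlap with NoCre, or with MCre, against 2.58% and 6.96% of all genes. After centring, 1 of 10 did in each, Astn1 against NoCre (3.35% of all genes) and Stmn2 against MCre (9.4% of all genes), both higher in DKO.

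**Figure D2:**
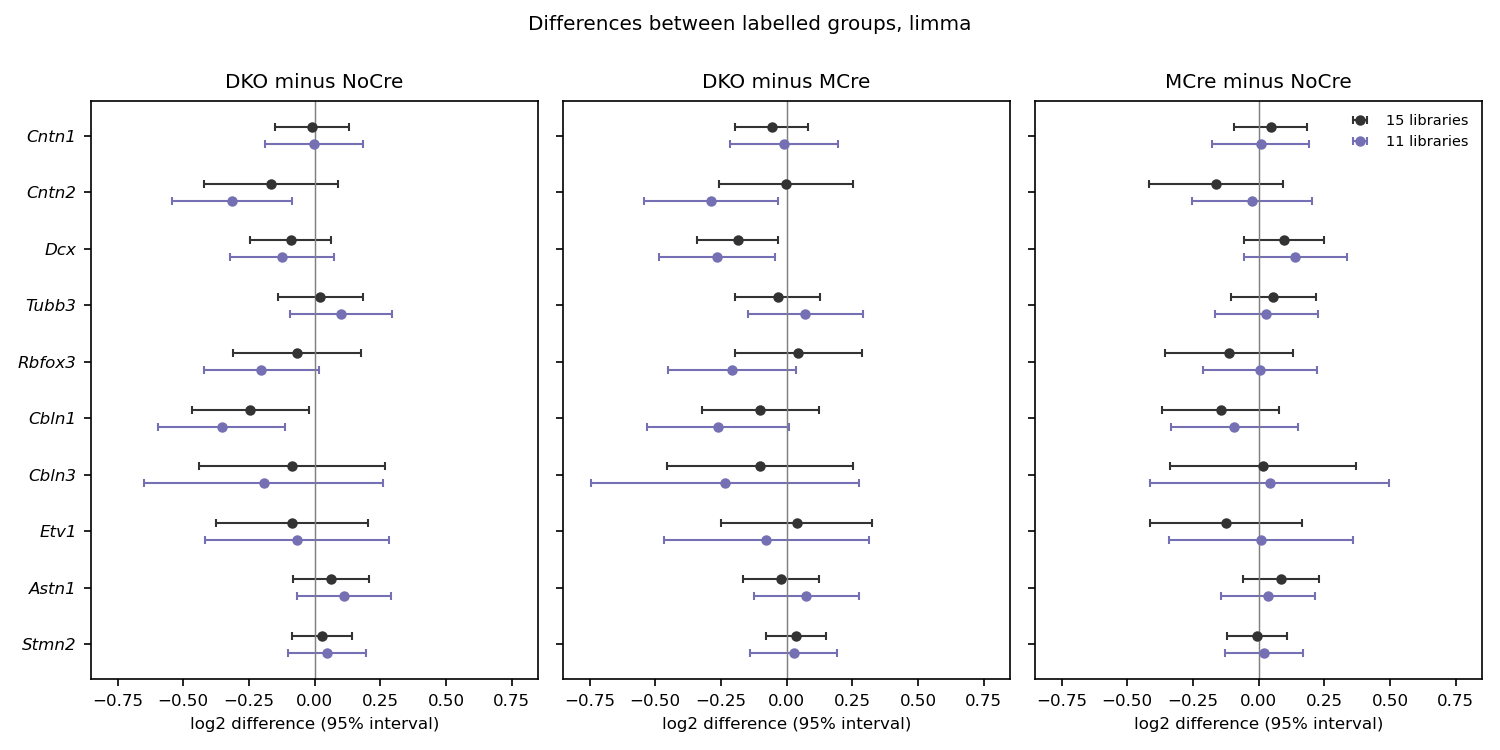
Difference of each member between labelled groups (log2, with the 95% interval of the limma fit), over all 15 libraries in grey and over the 11 libraries in purple. In both DKO panels Cntn2, Rbfox3 and Cbln1 lie lower over the 11 libraries than over the 15, down to -0.35 in Cbln1, and Rbfox3 lies above 0 against MCre over the 15.

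The members were next set out by the Gsk3a row, low against high, in place of the label. This split comes from a measured row, so it is described with no test. No member had all 5 low libraries on one side of all 10 high ones, as 1.51% of all genes did. After quantile normalization 1 of 10 did, Astn1, which was higher in the low libraries, against 1.66% of all genes. Within the 10 Cre-labelled libraries 1 of 10 members, Cntn2, had values that did not overlap, against 2.79% of all genes, and it was lower in the low libraries, as 1.8% of all genes were. It had 8.51, 8.53, 8.75, 8.55 and 8.55 log2 in the low libraries (DKO 2, 4, 5 and MCre 1, 2), against 8.85, 9.08, 8.91, 8.82 and 8.93 in the high ones (DKO 1, 3 and MCre 3, 4, 5). The NoCre libraries lay at 8.69 to 9.07, and NoCre 3 is the one below the highest low library. The separation of Cntn2 over these 10 libraries was not kept on other scales: after quantile normalization Tubb3 and Astn1 separated, both higher in the low libraries (2.77% of all genes), and after centring Tubb3 did, higher too (2.63%).

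Within each label taken alone, 4 of the 10 members had all low libraries on one side of all high ones, on the same side in DKO and in MCre, against 6.01% of all genes and 8.96% of the 10347 genes with a mean of at least 6. This count was chosen after the values were seen. Cntn2, Rbfox3 and Cbln1 were lower in the low libraries, 3 of 10 against 3.49% of all genes, and Astn1 was higher, 1 of 10 against 2.52%. Rbfox3 had 9.16, 9.06 and 8.84 log2 in the low and 9.48 and 9.23 in the high libraries labelled DKO. In those labelled MCre it had 9.04 and 8.82 in the low and 9.27, 9.31 and 9.10 in the high ones, and NoCre lay at 9.15 to 9.42.

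Cbln1 had 10.41, 10.28 and 10.24 log2 in the low and 10.45 and 10.72 in the high libraries labelled DKO. In those labelled MCre it had 10.54 and 10.35 in the low and 10.55, 10.60 and 10.57 in the high ones, and MCre 1 and MCre 3, at 10.54 and 10.55, are the closest pair. Astn1 had 10.33, 10.19 and 10.25 in the low and 10.14 and 10.13 in the high libraries labelled DKO. In those labelled MCre it had 10.33 and 10.28 in the low and 10.19, 10.21 and 10.14 in the high ones, with NoCre at 9.98 to 10.24. After quantile normalization these 4 members and Tubb3 separated in this way, against 5.97% of all genes, and after centring Cntn2, Astn1 and Tubb3 did, against 5.72%.

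The medians of the low libraries lay below those of the 5 high Cre-labelled libraries by 0.36 log2 in Cntn2, 0.25 in Etv1, 0.23 in Rbfox3, 0.22 in Cbln1, 0.21 in Cbln3, 0.07 in Dcx and 0.0061 in Stmn2. They lay above by 0.15 in Tubb3, 0.14 in Astn1 and 0.05 in Cntn1. The mean level of the 10 members was 9.74 to 9.83 in the low, 9.85 to 9.92 in the high Cre-labelled libraries, with NoCre from 9.78 upwards and overlapping with both. This mean includes Cbln3, was taken on the deposited scale only, and has no share over other sets of genes beside it. Over the 10 members the median of the differences between these class medians was -0.14, and over all genes -0.0089. With the low libraries set against all 10 high ones, it was -0.03 over the members and -0.0062 over all genes. Etv1 and Cbln3 overlapped widely between the classes. Etv1 had 8.49 to 8.96 in the low, 8.63 to 9.05 in the high Cre-labelled and 8.62 to 9.31 in the NoCre libraries.

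**Figure D3:**
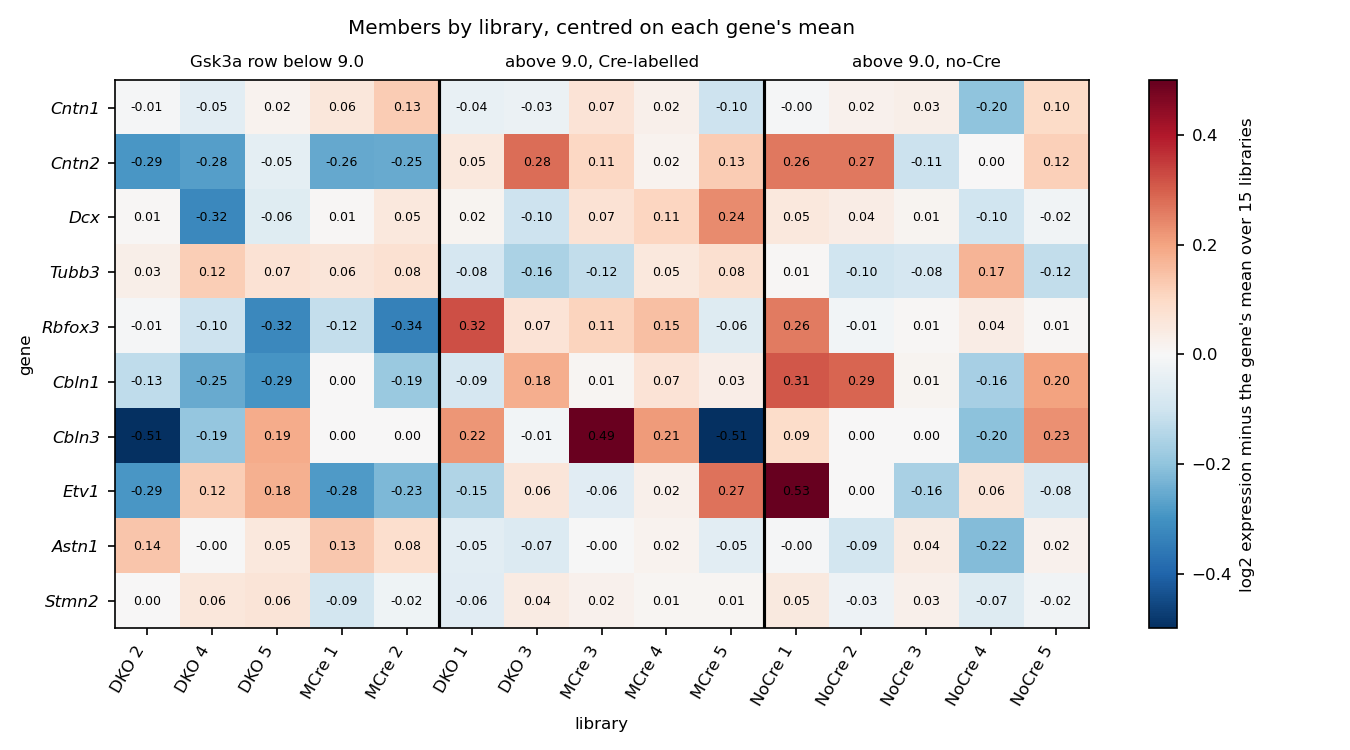
Level of each member in every library, as log2 expression minus the gene's mean over the 15 libraries (colour and printed number), with the low libraries at the left, the high Cre-labelled ones in the middle and NoCre at the right. Cntn2 is below its mean in all 5 low libraries and Stmn2 is within 0.09 of its mean in all 15.

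The mean level of granule neuron progenitor markers moved with the Gsk3a row, but not every marker did. The mean level of the 12 progenitor markers was 7.96 to 8.10 log2 in the low libraries and 8.40 to 8.82 in the 10 high ones. Of the 12, 5 did not overlap between low and high (Nhlh1, Mfap4, Mycn, Ccnd1 and Mki67, all lower), against 0.843% of all genes, and 7 were lower within both labels, against 3.49%. Atoh1, Gli2, Ptch1, Hhip and Ccnd2 separated in neither way. Atoh1 had 7.812 to 8.645 in the low and 8.540 to 9.308 in the high libraries. None of the 12 markers stayed within the level of the receptor genes on every array. Their part in the values of Cntn2, Rbfox3 and Cbln1 was not tested. The mean levels of the other marker lists overlapped between the 5 low and the 10 high libraries. Purkinje cell markers (9 measured of 11) had mean levels of 9.09 to 9.29 in the low and 9.03 to 9.24 in the high libraries, interneuron markers (5 of 6) 8.08 to 8.22 and 7.89 to 8.34, and astrocyte and Bergmann glia markers (10 of 10) 8.57 to 8.83 and 8.36 to 8.78. Oligodendrocyte markers (7 of 8) had 6.19 to 6.51 and 6.09 to 6.54, microglia markers (7 of 7) 5.22 to 5.78 and 5.04 to 5.88, and endothelial markers (6 of 6) 7.23 to 7.61 and 7.25 to 7.98. Markers of unipolar brush cells and the cerebellar nuclei (5 of 5) had 7.26 to 7.38 in the low and 7.36 to 7.62 in the high libraries, and 7.42 to 7.56 in the high Cre-labelled ones alone, which did not overlap with the low. Of these 5 genes 0 separated over the 15 libraries, against 1.51% of all genes. Only 1, Meis2, was lower within both labels, against 3.49%. Brainstem markers (14 of 16) had 3.72 to 4.12 and 3.59 to 4.50, the highest in NoCre 3, and 8 of the 14 stayed within the level of the receptor genes on every array.

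Relatives and partners of the members, and genes of the wider programme of the young neuron, were read from lists. Of the 11 other contactins and adhesion partners (Cntn3 to Cntn6, Cntnap1, Cntnap2, L1 family members and Ncam1) 0 passed in limma in DKO against either control, over the 15 or the 11 libraries. Of all genes 0.0721% passed against NoCre and 0.55% against MCre over the 15 libraries, and 1.08% and 0.541% over the 11. The same count of 0 held for 19 genes of glia-guided migration, 18 of the neuronal cytoskeleton, 6 measured of 9 in the cerebellin and C1q-like families with their receptors and 9 of the RBFOX, ELAV, NOVA and PEA3 families. In DKO minus NoCre over the 15 libraries, 1, 4, 2, 1 and 2 of these had an unadjusted p under 0.05, out of 11, 19, 18, 6 and 9, against 17.4% of all genes. Their medians over the 11 libraries in that contrast were +0.04, -0.03, -0.0077, -0.03 and -0.11, beside -0.10 for the members and -0.02 for all genes.

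In the list of later granule neuron genes 17 of 18 were measured. Over the 11 libraries 1 was higher and 1 lower in DKO than in either control, where 1.08% of all genes passed against NoCre and 0.541% against MCre. Over the 15 libraries 0 passed, where 0.0721% and 0.55% of all genes did. Gabra6, which encodes a GABA receptor subunit of mature granule neurons, was the higher one (limma adjusted p = 0.00239 against NoCre and 0.00661 against MCre). Grin2c, which encodes an NMDA receptor subunit of mature granule neurons, was the lower one (limma adjusted p = 0.0123 against NoCre and 0.0215 against MCre). In both genes one side of the comparison lay near the level of the receptor genes, so levels are given here and no size of the difference. By the Gsk3a row over 15 libraries the same 2 of 17 genes of the list did not overlap, against 1.51% of all genes. The 11 libraries were kept by that row and hold only low DKO and high control libraries, a selection for which these p-values do not allow. Over all 15 libraries the limma adjusted p against NoCre was 0.313 in Gabra6 and 0.124 in Grin2c. The split by the row is thus nearly the same comparison and no separate support. Gabra6 had 4.76 to 6.02 log2 in the 5 low libraries against 3.50 to 3.95 in the 10 high ones, and Grin2c had 3.49 to 4.08 in the low against 4.27 to 5.13 in the high ones.

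**Figure D4:**
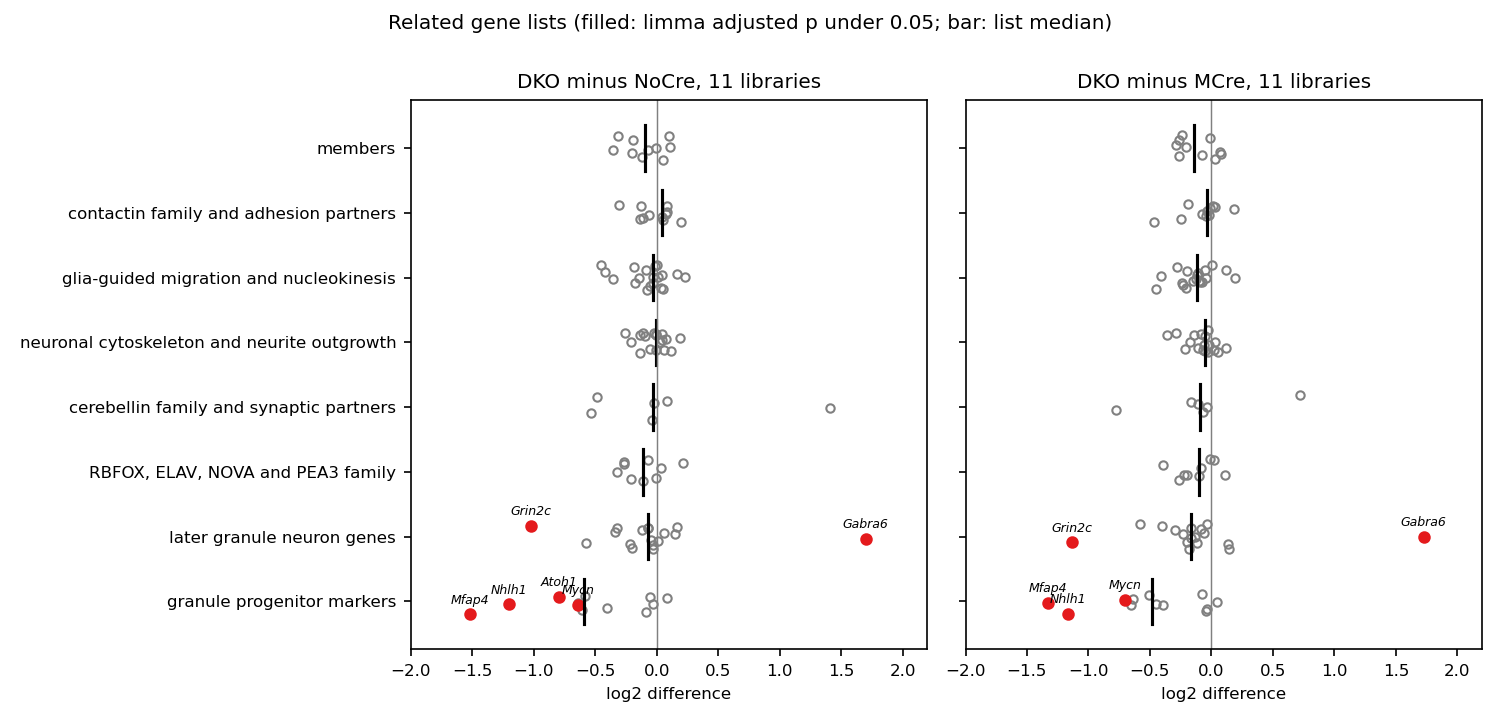
Log2 differences of the members and related genes over the 11 libraries, DKO minus NoCre at the left and DKO minus MCre at the right, each point a gene, filled where the limma adjusted p is under 0.05, and each bar a list's median. Filled points are Gabra6, Grin2c and progenitor markers, and none is a member; the places of Gabra6 and Grin2c rest on levels near the receptor genes on one side.

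For the 3 members of largest SD the genes of most similar pattern were sought by the root mean square (RMS) difference between values centred on each gene's mean, over 15 libraries and 9934 genes with a mean of at least 6. Nearest to Cntn2 were Reln (RMS difference 0.070 log2), Plxnb2 (0.078) and Map3k13 (0.083). Reln encodes reelin, the secreted guidance protein that granule cells make for Purkinje cells, and had 10.29 to 10.53 in the low and 10.61 to 11.03 in the high libraries, the 1 gene of 19 in the migration list whose classes did not overlap, against 1.51% of all genes. It did not pass in limma (-0.45 ± 0.10 in DKO minus NoCre over the 11 libraries, adjusted p = 0.0719). Nearest to Etv1 were Boc (0.12), a co-receptor gene of hedgehog signalling, Ulk4 (0.12) and Galnt7 (0.12), and nearest to Cbln3 were Plekhb1 (0.15), Gucy1b1 (0.16) and Hfm1 (0.18). For Etv1 and Cbln3 these differences are large beside the members' own SD of 0.22 and 0.27, so the likeness is loose. Etv1 has a second array row of lower signal, at 4.85 to 5.23, where DKO differed by -0.0043 from NoCre and by +0.011 from MCre.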

How the data were processed

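RNA was measured on Affymetrix Mouse Gene 2.1 ST arrays. The authors deposited 1 table of log2 expression values for 41345 array rows and 15 libraries. RMA, Partek 6.6 and the mouse build mm9 are named in the submitters' processing notes, with neither order nor settings given in the sources used here. Rows were named through the platform annotation: 23521 have 1 symbol, 1814 several and 16010 none. For each of 22180 genes the row of highest mean was used. Groups were compared in limma 3.58.1 (R 4.3.3) with a mean per group, all groups in 1 fit, eBayes and Benjamini-Hochberg adjustment over all genes, at 0.05. The limma fit was tested on simulated data. Descriptions and plots used Python 3.11.15, pandas 2.3.3 and matplotlib 3.10.9. The members, gene lists and tests were chosen with earlier results of these data known. Named genes are the members, Gsk3a and Gsk3b, up to 4 called genes of each related list, and the 3 genes most like each of the 3 members of largest SD. Reln's levels, other genes that separated by the Gsk3a row, the progenitor markers that did not, and the within-label comparison were chosen after values were seen. Alternatives were other scalings, filters, moderation, weights, blocks and left-out libraries. Scanner files were not used here.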

Additional observations from a re-analysis of the deposited data

Results flagged for a closer look

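In 3 of 30 sets of 5 libraries (10 members, 3 groups) 1 library lay far from the other 4 by Dixon's test, which chance gives in about 5% of sets. Tubb3 was 11.29 log2 in MCre 3, against 11.47 to 11.49 in the other MCre libraries. Rbfox3 was 9.42 in NoCre 1, against 9.15 to 9.20 in the other NoCre libraries. Cbln1 was 10.35 in MCre 2, a library with the Gsk3a row low, against 10.54 to 10.60 in the other MCre libraries.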

How the results depend on the processing

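None of the 30 member differences (10 members, 3 comparisons) passed adjusted p 0.05 in limma in any of 11 other settings or with any 1 of the 15 libraries left out, and the lowest adjusted p was 0.0572. Of the 780 values this gave, 716 kept their direction and 64 changed sign, none of them past the threshold. Many of the 716 could not change. Fitting only the groups compared, the filter, the moderation and the balanced blocks leave a difference of group means as it is. So does leaving out a library of the third group, or a second row for a gene that has 1 row. The count of 716 is thus no measure of how stable the directions are. Over the 11 libraries DKO minus MCre changed sign in Tubb3 (+0.071), Rbfox3 (-0.21), Etv1 (-0.077) and Astn1 (+0.075), and MCre minus NoCre in Rbfox3 (+0.0056), Etv1 (+0.0093) and Stmn2 (+0.020). Under quantile normalization DKO minus NoCre did so in Cntn1 (+0.051) and Cbln3 (+0.0076), DKO minus MCre in Cntn1 (+0.043), Cntn2 (+0.090), Tubb3 (+0.038), Cbln3 (+0.014) and Astn1 (+0.050), and MCre minus NoCre in Cbln3 (-0.0065). With arrays centred on the median DKO minus NoCre did so in Cntn1 (+0.093), Dcx (+0.013), Rbfox3 (+0.036), Cbln3 (+0.019) and Etv1 (+0.017), DKO minus MCre in Cntn1 (+0.081), Cntn2 (+0.13), Tubb3 (+0.10), Cbln1 (+0.037), Cbln3 (+0.037) and Astn1 (+0.11), and MCre minus NoCre in Cbln3 (-0.018). With array weights Cntn2 did so in DKO minus MCre (+0.015). With the interquartile range as a covariate DKO minus NoCre did so in Cntn1 (+0.063) and Tubb3 (-0.056), DKO minus MCre in Cntn1 (+0.039), Cntn2 (+0.011), Cbln1 (+0.027), Cbln3 (+0.0031), Etv1 (-0.017) and Astn1 (+0.073), and MCre minus NoCre in Cbln3 (-0.0082). The cause was not tested. With 1 library left out, DKO minus NoCre ran from -0.058 to +0.017 in Cntn1, -0.010 to +0.071 in Tubb3, -0.15 to +0.011 in Rbfox3, -0.16 to +0.027 in Cbln3 and -0.14 to +0.028 in Etv1. DKO minus MCre ran from -0.088 to +0.055 in Cntn2, -0.072 to +0.0050 in Tubb3, -0.038 to +0.12 in Rbfox3, -0.24 to +0.013 in Cbln3, -0.019 to +0.12 in Etv1 and -0.054 to +0.0017 in Astn1. MCre minus NoCre ran from -0.00094 to +0.081 in Cntn1, -0.098 to +0.15 in Cbln3 and -0.022 to +0.011 in Stmn2. Over the 11 libraries, leaving out 1 more library, an alternative chosen after seeing the data, gave 0 to 1 members called in DKO minus NoCre, the 1 being Cbln1 without NoCre 4. By the Gsk3a row 0 members separated over 15 libraries (1.51% of all genes), 1 (Astn1) under quantile normalization (1.66%) and 1 (Cntn2) in the 10 Cre-labelled libraries alone (2.79%), where Tubb3 and Astn1 (2.77%) did under quantile normalization and Tubb3 (2.63%) after centring. Same-numbered libraries had correlations of their deviations from the label means of -0.30 to 0.30, over 0.1 in 6 of 15 pairs. DKO and MCre each mix low and high libraries, so these correlations cannot settle whether the numbers pair samples. No pairing was used in the fit above. With a replicate block 0 members were called in each comparison, and all-gene calls were 6, 0 and 0, against 16, 122 and 0 without it. All-gene calls in DKO minus NoCre ran from 0 to 1546 with 1 library left out, the highest without NoCre 4, and were 739 with array weights. Cbln3 did not stay within the level of the receptor genes on every array, but its low signal and its ties limit what the row can show.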
